A study of Mus musculus with 7 samples.

Results

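Oxidative phosphorylation genes were compared between the blastema of the amputated mouse digit tip and the uninjured digit. The genes were taken by symbol: those that start with Nduf and a, b, c, s or v, Sdh with a, b, c or d, Uqcr, Cox with 4 to 8, or Atp5. The rule found 89 of the 22180 genes measured by a probe set with 1 symbol. Of these, 77 encode subunits of the 5 complexes: 32 of complex I, 4 of complex II, 7 of complex III, 17 of complex IV and 17 of complex V. Ndufa4, named as a complex I gene but a subunit of complex IV, was counted in complex IV. The other 12 are assembly factors, pseudogenes and relatives of subunits. The groups were 3 blastemas, harvested 2 weeks after amputation, and 4 uninjured digits, both from C57Bl/6 mice. The labels call the samples biological replicates, and give no genotype other than the strain and no age or sex. Total RNA of each sample (400 ng) was hybridised to 1 array.

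The complexes lie in the inner mitochondrial membrane. Complex I (NADH dehydrogenase) and complex II (succinate dehydrogenase) pass electrons to ubiquinone, complex III passes them to cytochrome c, and complex IV (cytochrome c oxidase) reduces oxygen. Complexes I, III and IV pump protons, and complex V (ATP synthase) uses the gradient to make ATP. The digit tip blastema is the mass of proliferating cells that regrows the tip, bone included, after amputation through the terminal phalanx.

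Levels are log2 values normalized by the authors, and each log2 fold change subtracts the mean of the uninjured arrays from that of the blastema arrays. A gene was called lower or higher where its p-value from limma, adjusted by Benjamini-Hochberg over the 22180 genes, was under 0.05. With 7 arrays, the number of arrays limits the precision, and the p-values measure the spread between these samples. Array medians ran from 5.53 to 5.58. Correlations between arrays were 0.988 to 0.992 within blastema, 0.986 to 0.991 within uninjured digit and 0.964 to 0.979 between the groups. No array carries a detection call. In their place, a background level of 5.52 was used, under which lay 95% of the means of 1105 olfactory receptor genes, and 79 of the 89 genes had a group mean above it. Both groups were tissue with many cell types, so fewer cells of a type and less RNA per cell cannot be told apart.

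Many oxidative phosphorylation genes were lower in the blastema, by modest amounts. Of the 89, 34 fell and 2 rose, against 4.66% of all tested genes lower, 4.98% higher and 9.64% in either direction. The median log2 fold change was -0.32 over the 89 genes, a ratio of 0.803, and -0.0054 over all tested genes. The range ran from -1.09 (Cox7b) to 0.44 (Ndufa4l2). In 47 genes, 52.8% of the 89, each blastema array lay below each uninjured array, against 10.6% of all tested genes. In 2 genes each blastema array lay above, against 10.4%. Among the 77 subunits, 33 fell (42.9%) and 1 rose, with a median of -0.33. Of the 13316 tested genes above the background level 7.34% fell, with a median of -0.01, beside 32 of 70 such subunits. The count of oxidative phosphorylation genes called lower was 33 without uninjured array 1, 18 without uninjured array 2, 19 without uninjured array 3 and 21 without uninjured array 4. It was 21 without blastema array 1, 20 without blastema array 2 and 13 without blastema array 3. Over all tested genes the count called lower was 1034 with all 7 arrays. It was 996, 505, 520 and 586 without uninjured arrays 1 to 4, and 1009, 429 and 365 without blastema arrays 1 to 3. Of the 36 called genes 12 kept their call in all 7 omissions: Ndufa6, Ndufa11, Ndufa13, Cox4i1, Cox5a, Cox5b, Cox6b1, Cox7a2, Cox7b, Cox7a2l, Atp5k and Atp5md.

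**Figure D1:**
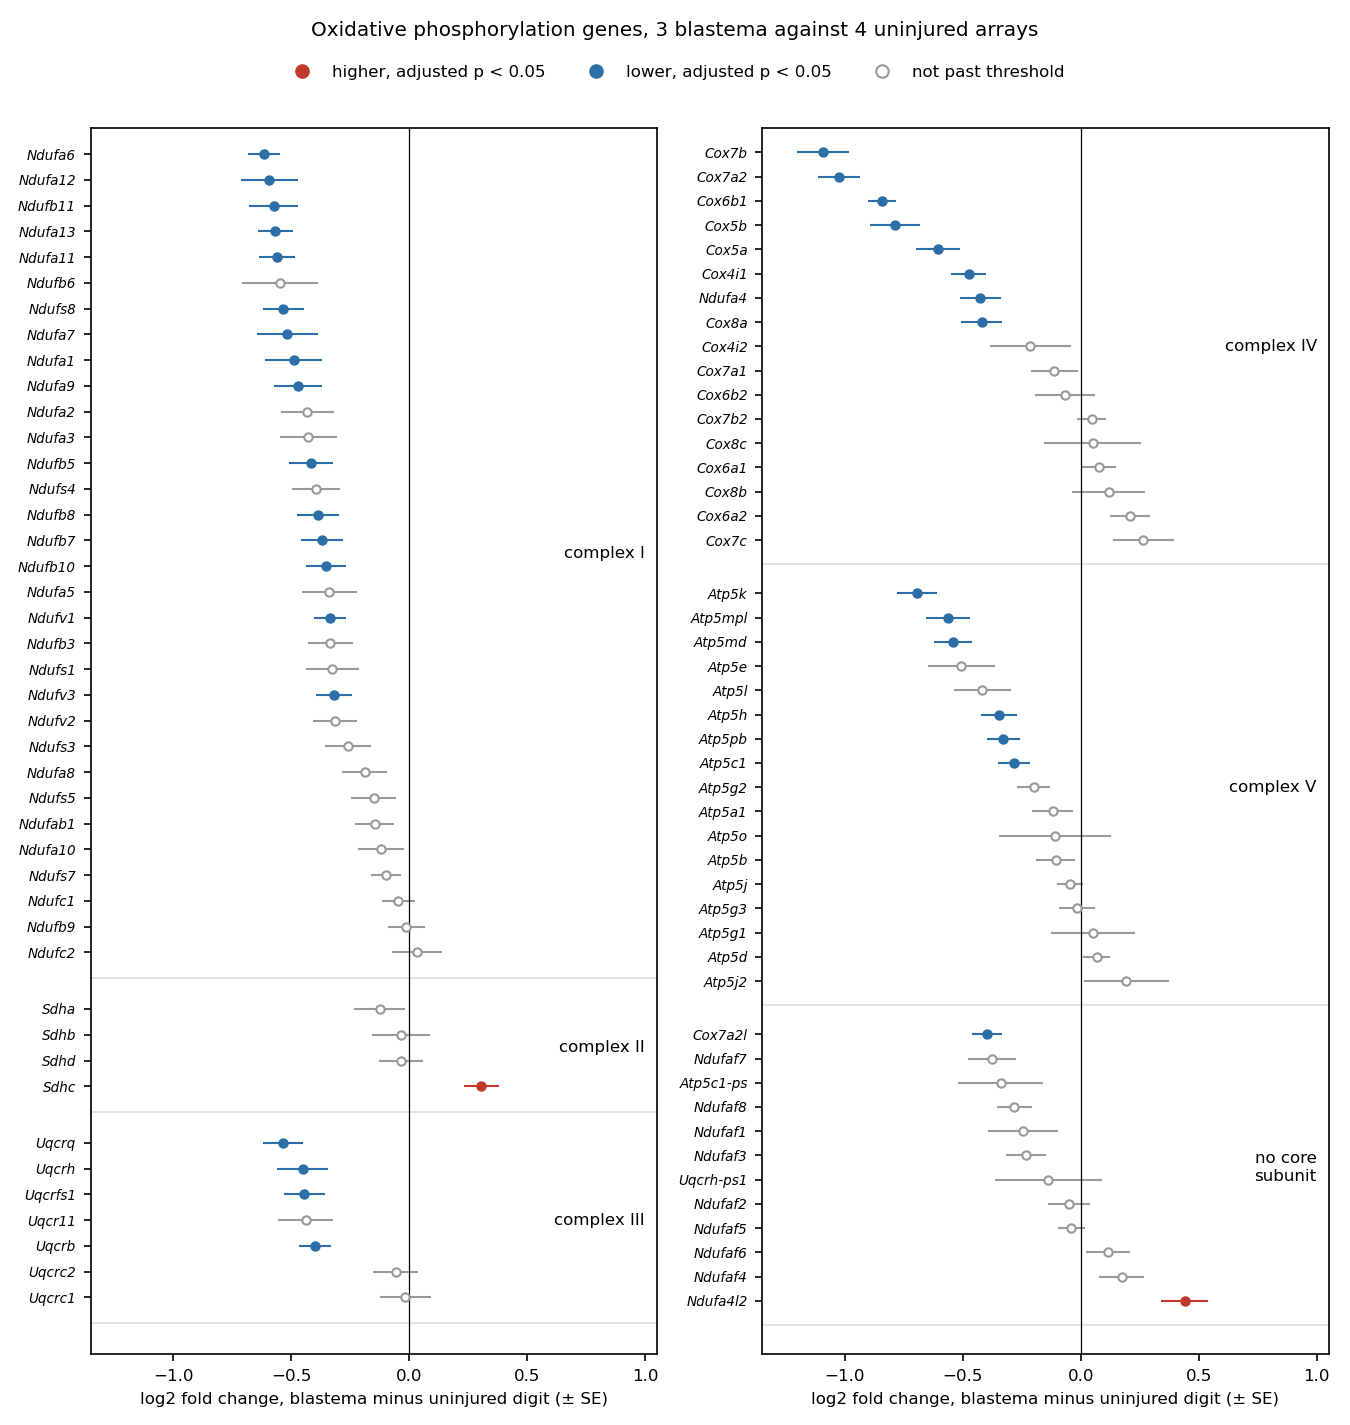
Log2 fold change (x axis, blastema minus uninjured digit, bars ± SE) of the 89 genes, grouped by complex, for 3 blastema and 4 uninjured arrays. Filled blue points are the 34 genes called lower, filled red points the 2 called higher (Sdhc and Ndufa4l2), and open points the genes not past the threshold.

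Subunit genes are transcribed in the nucleus apart from the mitochondrially encoded ones, which were not analysed here. Nuclear subunit genes are known to carry promoter sites for NRF1, GABPA (an ETS factor), YY1, ERR and SP1. RefSeq promoter windows of 300 bases (GRCm38.p6, 250 before and 50 after the transcription start) were found for 64 of the 77 subunits, 69 windows in all. The letters searched on both strands were GCGCATGC for NRF1, CCGGAAG for GABPA, AANATGGC for YY1, AAGGTCA for ERR and GGGCGG for SP1. Matches were counted also where they overlapped another match. The 250 bases upstream of the start are shown for 4 called genes, 1 each from complexes I, III, IV and V. In each complex this was the gene with the largest fall among those with 1 window and an NRF1 or GABPA match in these bases. Capitals mark those matches. Each window is on the minus strand and is written 5′ to 3′: Ndufa6 at chr15:82354292-82354541, Uqcrh at chr4:116075071-116075320, Cox6b1 at chr7:30626115-30626364 and Atp5k at chr5:108434400-108434649.
Ndufa6: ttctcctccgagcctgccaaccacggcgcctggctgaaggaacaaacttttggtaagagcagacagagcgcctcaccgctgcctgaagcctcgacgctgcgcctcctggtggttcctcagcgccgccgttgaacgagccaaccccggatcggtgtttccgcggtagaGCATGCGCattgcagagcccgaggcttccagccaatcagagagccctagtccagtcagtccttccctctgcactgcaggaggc
Uqcrh: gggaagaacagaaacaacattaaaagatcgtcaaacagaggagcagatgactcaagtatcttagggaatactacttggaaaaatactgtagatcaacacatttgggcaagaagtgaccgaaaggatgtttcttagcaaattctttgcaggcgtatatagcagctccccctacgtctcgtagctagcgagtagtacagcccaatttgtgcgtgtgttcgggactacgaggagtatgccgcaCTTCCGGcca
Cox6b1: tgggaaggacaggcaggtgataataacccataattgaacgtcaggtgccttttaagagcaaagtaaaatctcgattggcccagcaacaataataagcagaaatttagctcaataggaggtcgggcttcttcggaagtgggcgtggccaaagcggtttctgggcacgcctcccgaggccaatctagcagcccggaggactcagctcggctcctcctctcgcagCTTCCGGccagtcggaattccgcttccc
Atp5k: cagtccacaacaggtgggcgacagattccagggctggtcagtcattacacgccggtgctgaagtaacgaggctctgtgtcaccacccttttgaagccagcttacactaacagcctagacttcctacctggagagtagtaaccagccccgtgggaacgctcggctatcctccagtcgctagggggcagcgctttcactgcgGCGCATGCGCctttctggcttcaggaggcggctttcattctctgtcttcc
In Ndufa6 the capitals are an NRF1 match that starts at position -83 relative to the transcription start. In Atp5k they are a palindrome that holds an NRF1 match on each strand, starting at positions -50 and -48. In Uqcrh and Cox6b1 they are GABPA matches at positions -10 and -28, in that order. The same stretch upstream of Cox7b and Cox7a2, the genes with the largest falls, holds neither match and is not shown.

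NRF1 letters were in 3 of 31 windows of subunits called lower (9.68%), 7 of 38 windows of subunits not called (18.4%) and 2.71% of all 32851 windows. GABPA letters were in 8 of 31 windows (25.8%) of subunits called lower, in 9 of 38 (23.7%) of those not called and in 8.86% of all. For YY1 the shares were 9 of 31 (29.0%), 7 of 38 (18.4%) and 6.05%. ERR letters were in 1 of 31 (3.23%), 5 of 38 (13.2%) and 4.72%. SP1 letters were in 10 of 31 (32.3%), 18 of 38 (47.4%) and 35.7%. These shares describe letters in the windows, no difference between them was tested, and a match is not a bound site.

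Complex I is an L-shaped assembly with a peripheral arm, which oxidises NADH in the matrix, and a membrane arm, which pumps protons. Of its 32 measured subunits 15 fell, 0 rose and 17 were not called, and 31 lay below zero, with a median log2 fold change of -0.36. At an unadjusted p under 0.05 the limma counts were 24 lower and 0 higher, against 12.7% of all tested genes lower and 12.2% higher at that p. The falls lay in both arms: 7 of 14 peripheral arm subunits fell (median -0.37), and 8 of 17 membrane arm subunits fell (median -0.37). The acyl carrier Ndufab1, which belongs to both arms, had a log2 fold change of -0.15 (95% interval -0.34 to 0.04).

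Ndufa6, an accessory subunit of the peripheral arm that binds the acyl carrier, had levels of 8.04, 8.10 and 7.91 in the blastema arrays, against 8.61, 8.70, 8.64 and 8.57 in the uninjured arrays. The groups did not overlap, and the log2 fold change was -0.62 ± 0.07 (SE, adjusted p = 0.00362 by limma). Ndufa13, a membrane arm subunit also known as GRIM-19, was at 7.42, 7.36 and 7.18 in blastema, against 7.84, 7.91, 7.93 and 7.85 in uninjured digit. It fell by 0.57 ± 0.07 on the log2 scale (adjusted p = 0.00554). Ndufa11, at the junction with other complexes in the membrane arm, was at 8.18, 8.37 and 8.33 in blastema and 8.89, 8.93, 8.72 and 8.86 in uninjured digit. It fell by 0.56 ± 0.08 (adjusted p = 0.0068). Its other, dimmer probe set gave -0.31 (adjusted p = 0.311).

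Ndufs8, a core subunit that holds iron-sulphur clusters, was at 7.60, 7.91 and 7.66 in blastema, against 8.22, 8.31, 8.30 and 8.20 in uninjured digit. The groups were apart, with a log2 fold change of -0.53 ± 0.09 (adjusted p = 0.0115, and 0.0569 without blastema array 3). Ndufa12 fell by 0.59 ± 0.12 (adjusted p = 0.0243), and its second probe set gave -0.45 (adjusted p = 0.0914). Its blastema levels were 7.10, 7.18 and 6.98, and its uninjured levels 7.43, 7.88, 7.82 and 7.59. It kept its call only without uninjured array 1 among the 7 omissions, whose adjusted p ran from 0.0155 to 0.104. Ndufb11 fell by 0.57 ± 0.10 (adjusted p = 0.0162), but its means of 4.88 in blastema and 5.45 in uninjured digit were both under the background level. It lost its call without uninjured array 4 (0.0501), blastema array 2 (0.0573) or blastema array 3 (0.0746).

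The other 9 called complex I genes, named after their values were seen, were Ndufa1, Ndufa7, Ndufa9, Ndufb5, Ndufb7, Ndufb8, Ndufb10, Ndufv1 and Ndufv3. Their log2 fold changes ran from -0.52 (Ndufa7) to -0.32 (Ndufv3), with adjusted p from 0.0248 to 0.0487. Ndufv1, the subunit that binds NADH and the flavin, was at 8.10, 8.08 and 8.06 in blastema, against 8.44, 8.54, 8.35 and 8.34 in uninjured digit. Its log2 fold change was -0.34 ± 0.07 (adjusted p = 0.0248). It lost its call without blastema array 2 (0.0832) or 3 (0.0925), and the other 8 lost theirs in at least 5 of the 7 omissions, all 8 among them without blastema array 3 (adjusted p up to 0.164).

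Of the 17 complex I subunits not called, 9 had an unadjusted p under 0.05, with log2 fold changes of -0.55 to -0.26. The other 8 lay between -0.19 and 0.03. Among these Ndufb9 was at -0.01 (95% interval -0.19 to 0.17) and Ndufc2 at 0.03 (-0.21 to 0.28). Ndufs7, the core subunit with the last iron-sulphur cluster before ubiquinone, was at -0.10 (-0.25 to 0.05). Ndufb6 had the largest difference among subunits that did not pass, at -0.55 (-0.93 to -0.17, adjusted p = 0.083). Its levels were 5.89, 6.41 and 5.67 in blastema, against 6.48, 6.54, 6.52 and 6.61 in uninjured digit. The groups did not overlap, but blastema array 2 lay close to the uninjured arrays, and without it the adjusted p was 0.0183.

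Complex II is the only one of the 5 that also serves in the citric acid cycle and does not pump protons. Of its 4 subunits 0 fell and 1 rose, with a median of -0.03, which was 0.060 without blastema array 1 and -0.14 without blastema array 3. The limma counts at an unadjusted p under 0.05 were also 0 lower and 1 higher. Over all tested genes 4.66% fell and 4.98% rose, with 12.7% lower and 12.2% higher at the unadjusted p. With 4 genes, a count of 0 lower is near that share. Sdhc, one of the membrane anchors that hold the ubiquinone site, was at 8.05, 8.22 and 8.20 in blastema, against 7.87, 7.82, 7.96 and 7.76 in uninjured digit. Each blastema array was above each uninjured array, and the log2 fold change was 0.31 ± 0.07 (adjusted p = 0.0454). This call was not stable: it held only without blastema array 1 (0.0363), and without any 1 of the other 6 arrays the adjusted p was 0.0568 to 0.15. The catalytic subunits did not pass, with -0.12 for the flavoprotein Sdha (-0.38 to 0.13) and -0.03 for the iron-sulphur protein Sdhb (-0.32 to 0.26). The anchor Sdhd was at -0.03 (-0.25 to 0.18).

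In complex III, 4 of 7 subunits fell and 0 rose, with a median of -0.44, beside 4.66% and 4.98% of all tested genes. At an unadjusted p under 0.05 the limma counts were 5 lower and 0 higher, beside 12.7% and 12.2% of all tested genes. Uqcrq, a small subunit, was at 6.60, 6.72 and 6.60 in blastema, against 7.21, 7.32, 7.02 and 7.14 in uninjured digit. The groups did not overlap, and Uqcrq fell by 0.53 ± 0.08 (adjusted p = 0.0104). Uqcrb, a small subunit near a ubiquinone site, was at 10.51, 10.65 and 10.55 in blastema, against 10.90, 10.94, 11.06 and 10.98 in uninjured digit. It fell by 0.40 ± 0.07 (adjusted p = 0.0125). Without blastema array 3 neither passed (0.0529 for Uqcrq and 0.0561 for Uqcrb).

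Uqcrfs1, the Rieske iron-sulphur protein that passes an electron to cytochrome c1, was at 6.04, 6.29 and 6.25 in blastema, against 6.51, 6.75, 6.62 and 6.67 in uninjured digit. The log2 fold change was -0.44 ± 0.09 (adjusted p = 0.0229), and over the 7 omissions the adjusted p was 0.0245 to 0.0716. It passed only without uninjured array 1 or blastema array 1. Uqcrh, the hinge protein, was at 6.72, 7.14 and 6.90 in blastema and at 7.24, 7.43, 7.45 and 7.36 in uninjured digit. It fell by 0.45 ± 0.11 (adjusted p = 0.0425) and passed only without blastema array 2 (0.0354), with 0.0517 to 0.143 in the other 6 omissions. Uqcr11 had a like difference that did not pass, -0.44 (-0.71 to -0.17, adjusted p = 0.06). The large core proteins, which face the matrix, were near zero: -0.02 for Uqcrc1 (-0.27 to 0.24) and -0.06 for Uqcrc2 (-0.28 to 0.17).

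Complex IV held the largest falls. Of its 17 genes 8 fell and 0 rose, with a median of -0.21, and at an unadjusted p under 0.05 the limma counts were 8 lower and 1 higher. The 8 were among the 10 widely expressed subunits, whose median was -0.54. Of the 7 isoforms known to be restricted to some tissues 0 passed (0 lower and 1 higher at an unadjusted p under 0.05). Their median was 0.05, and 4 of them were at or under the background level in both groups. Over all tested genes 4.66% fell and 4.98% rose, with 12.7% lower and 12.2% higher at the unadjusted p. A count of 0 among 7 isoforms is near that share.

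Cox7b was at 7.18, 7.58 and 7.24 in blastema, against 8.34, 8.49, 8.53 and 8.35 in uninjured digit. The lowest uninjured array exceeded the highest blastema array by more than the spread within either group. The log2 fold change was -1.09 ± 0.11 (adjusted p = 0.00277), a 2.14-fold lower level in blastema. A second Cox7b probe set, with a mean level of 4.87, gave 0.02. Cox7a2, the widely expressed form of a subunit at the dimer interface, was at 7.75, 7.999 and 7.79 in blastema, against 8.83, 9.02, 8.87 and 8.78 in uninjured digit. It was 2.03-fold lower in blastema, a log2 fold change of -1.02 ± 0.09 (adjusted p = 0.00184).

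Cox6b1, which faces the intermembrane space where cytochrome c docks, was at 8.07, 8.19 and 8.19 in blastema, against 8.998, 8.95, 9.05 and 8.98 in uninjured digit. Its spread was small in both groups, and it had the smallest adjusted p of the 89 genes (0.00126), with a log2 fold change of -0.84 ± 0.06. Cox5b, a zinc-binding matrix-side subunit, was at 8.34, 8.57 and 8.34 in blastema, against 9.30, 9.30, 9.26 and 8.96 in uninjured digit. Uninjured array 4 lay below the other 3, and still above each blastema array. Cox5b fell by 0.79 ± 0.11 (adjusted p = 0.0065). A second Cox5b probe set with a mean level of 5.08 gave -0.27 (adjusted p = 0.512), and the call was lost when the probe sets were averaged.

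Cox5a, another matrix-side subunit, was at 8.04, 8.19 and 7.95 in blastema, against 8.54, 8.82, 8.59 and 8.71 in uninjured digit, and fell by 0.60 ± 0.09 (adjusted p = 0.0093). Cox4i1, a subunit that assembles early and through which ATP regulates the enzyme, was at 8.02, 7.99 and 8.22 in blastema, against 8.57, 8.60, 8.52 and 8.51 in uninjured digit. It fell by 0.48 ± 0.07 (adjusted p = 0.0093). These 6 genes kept their calls without any 1 array. Ndufa4 fell by 0.43 ± 0.09 (adjusted p = 0.0243, 0.0383 to 0.0723 over the omissions), and Cox8a by 0.42 ± 0.09 (adjusted p = 0.026, 0.027 to 0.105). Ndufa4 passed only without uninjured array 1, and Cox8a only without uninjured array 1, uninjured array 4 or blastema array 1.

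The other widely expressed subunits were not called. Cox6a1 was at 11.73, 11.88 and 11.85 in blastema and 11.72, 11.85, 11.79 and 11.63 in uninjured digit, overlapping groups with a log2 fold change of 0.07 (-0.10 to 0.25, adjusted p = 0.589). Cox7c had a log2 fold change of 0.27 (-0.04 to 0.57, adjusted p = 0.258).

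**Figure D2:**
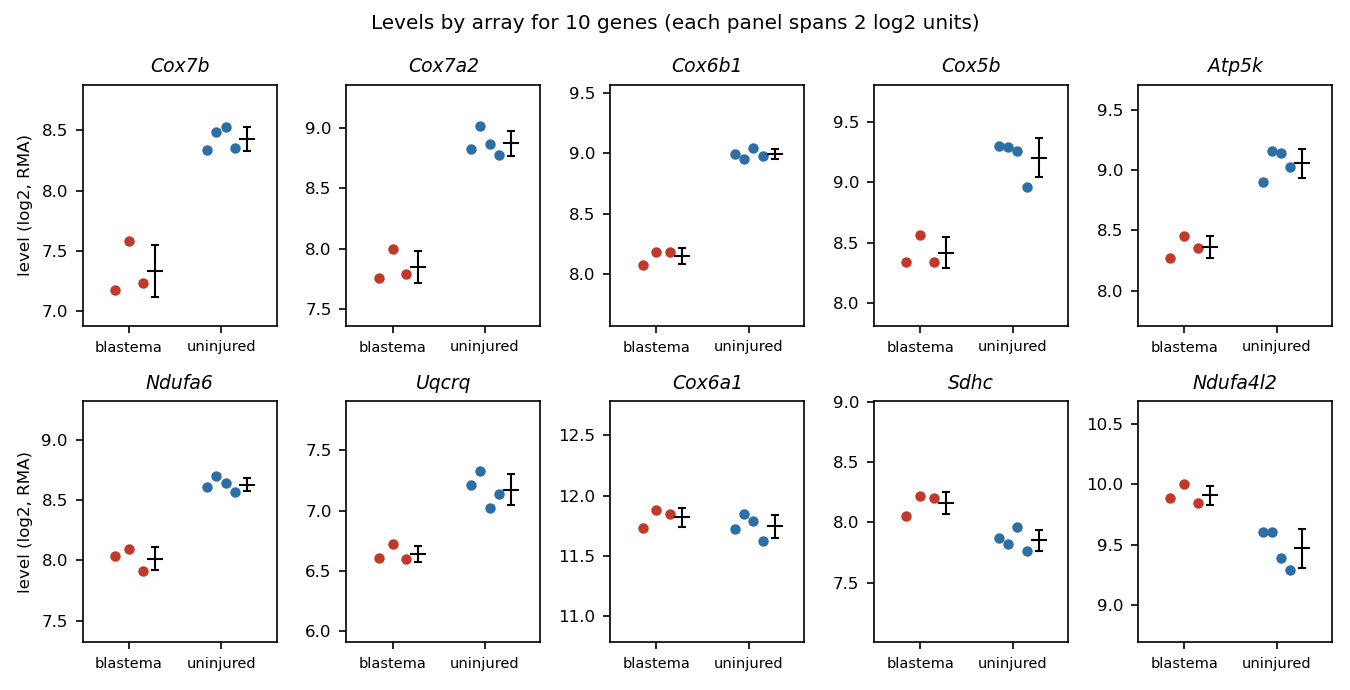
Level (y axis, log2, RMA) on each array for 10 genes, blastema (red, 3 arrays) left of uninjured digit (blue, 4 arrays), with mean ± SD in black and a span of 2 log2 units in each panel. Blastema lies wholly below uninjured digit in Cox7b, Cox7a2, Cox6b1, Cox5b, Atp5k, Ndufa6 and Uqcrq, overlaps it in Cox6a1, and lies wholly above it in Sdhc and Ndufa4l2.

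Complex V has a catalytic F1 head on a rotating central stalk, a peripheral stalk that holds the head still, a ring of c subunits, and small membrane subunits around it. Of 17 measured subunits 6 fell and 0 rose, with a median of -0.20, and at an unadjusted p under 0.05 the limma counts were 9 lower and 0 higher. Of the 5 small membrane subunits 3 fell (median -0.54, with Atp5j2 under the background level), as did 2 of 4 peripheral stalk subunits (median -0.22). In the F1 head and central stalk 1 of 5 fell (median -0.12). None of the 3 c ring genes passed (1 lower at an unadjusted p under 0.05, median -0.02). Over all tested genes 4.66% fell and 4.98% rose, with 12.7% lower and 12.2% higher at the unadjusted p. A count of 0 among 3 c ring genes is near that share.

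Atp5k, subunit e, was at 8.27, 8.46 and 8.35 in blastema, against 8.90, 9.16, 9.14 and 9.02 in uninjured digit. The groups were apart, with a log2 fold change of -0.69 ± 0.09 (adjusted p = 0.00466). Atp5md, also known as DAPIT, was at 9.48, 9.70 and 9.56 in blastema, against 10.02, 10.22, 10.19 and 10.06 in uninjured digit, and fell by 0.54 ± 0.08 (adjusted p = 0.00879). Atp5mpl, a small proteolipid, was at 7.74, 7.76 and 7.76 in blastema and 8.09, 8.43, 8.43 and 8.32 in uninjured digit. It fell by 0.56 ± 0.09 (adjusted p = 0.0119), and missed the threshold without blastema array 2 (0.0534) or 3 (0.0548). Subunit e and its partner subunit g (Atp5l) are known for joining ATP synthases into dimers. Atp5l was at -0.42 (-0.70 to -0.13, adjusted p = 0.079).

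Of the stalks, Atp5h (subunit d) fell by 0.35 ± 0.07 (adjusted p = 0.0299) and Atp5pb (subunit b) by 0.33 ± 0.07 (adjusted p = 0.0283). Atp5c1, the rotating gamma subunit, fell by 0.29 ± 0.07 (adjusted p = 0.0417). These calls were the less stable ones: without 1 array the adjusted p reached 0.1 for Atp5h, 0.0859 for Atp5pb and 0.132 for Atp5c1, each without blastema array 3. Atp5pb and Atp5c1 passed only without uninjured array 1, and Atp5h also without uninjured array 4. A second, dimmer Atp5h probe set gave 0.07, and the Atp5h call was lost when the probe sets were averaged. The catalytic and structural subunits of the head, Atp5b and Atp5a1, had log2 fold changes of -0.11 (-0.30 to 0.09) and -0.12 (-0.32 to 0.08). Atp5e (subunit epsilon) was at 6.16, 6.74 and 6.65 in blastema, against 7.13, 7.06, 7.02 and 6.89 in uninjured digit. Its difference of -0.51 (-0.84 to -0.17, adjusted p = 0.0728) did not pass, and a second probe set of like level gave -0.07. Of the c ring genes, which encode the same mature protein, Atp5g2 was at -0.20 (-0.36 to -0.04), Atp5g3 at -0.02 (-0.20 to 0.17) and Atp5g1 at 0.05 (-0.37 to 0.47).

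**Figure D3:**
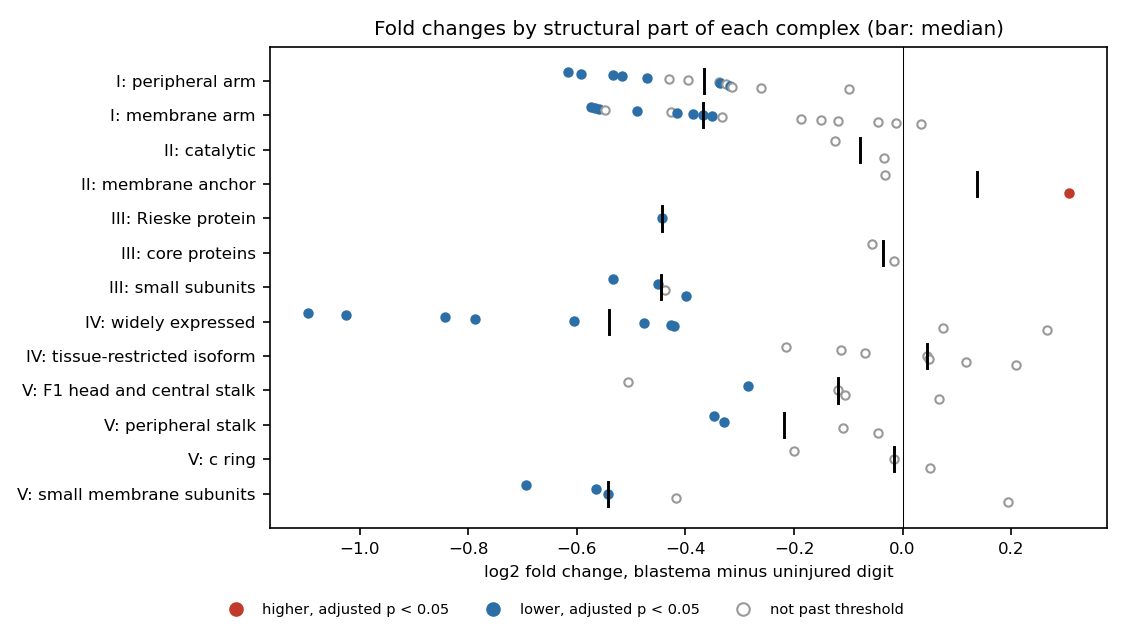
Log2 fold change (x axis, blastema minus uninjured digit) of each subunit gene, 1 row for each structural part of a complex, with a black bar at the median. Widely expressed complex IV subunits (median -0.54) and small membrane subunits of complex V (median -0.54) lie furthest left, and the core proteins of complex III, the c ring and the tissue-restricted complex IV isoforms lie around zero.

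The complexes were also followed array by array, as the median over their genes of the level minus the gene's mean over the 7 arrays. For complex I this was -0.30, -0.12 and -0.21 in blastema arrays 1, 2 and 3, against 0.04, 0.24, 0.16 and 0.12 in uninjured arrays 1 to 4. Complex III stood at -0.30, -0.04 and -0.25 in blastema, against 0.06, 0.25, 0.18 and 0.18 in uninjured digit. In both, blastema array 2 and uninjured array 1 were the nearest to each other. Complex IV stood at -0.06, -0.22 and -0.13 in blastema and at 0.22, 0.20, 0.15 and 0.01 in uninjured digit, with blastema array 1 and uninjured array 4 nearest. Complex V stood at -0.17, -0.08 and -0.16 in blastema and at 0.06, 0.18, 0.14 and 0.07 in uninjured digit. The groups did not overlap in these 4. In complex II they did, with -0.21, 0.02 and 0.19 in blastema and -0.07, 0.07, -0.01 and -0.06 in uninjured digit. The same median over all genes stayed between -0.007 and 0.009. The members of a complex share arrays and are not replicates, so no test was made between complexes.

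**Figure D4:**
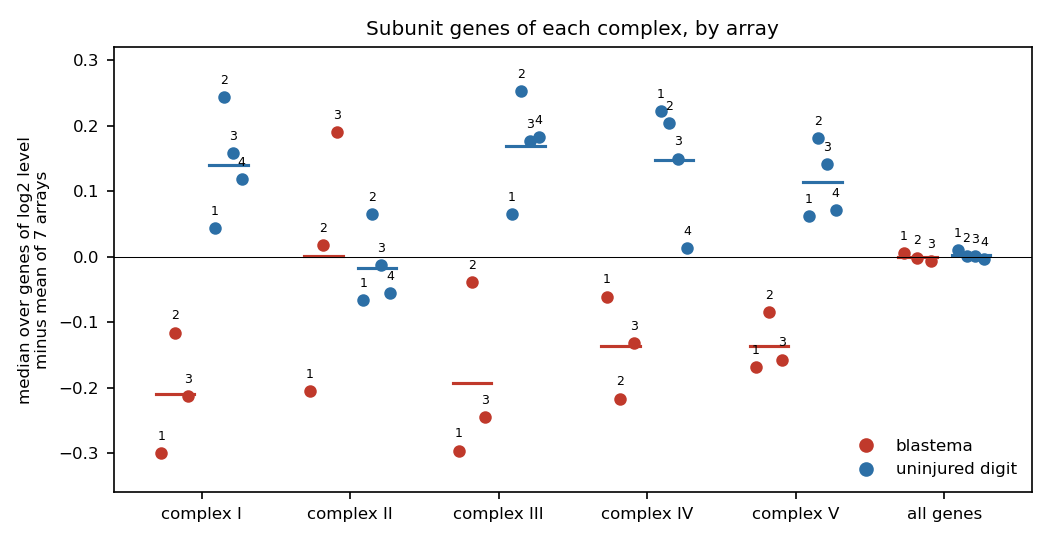
Median over the genes of a complex of the log2 level minus the gene's mean over 7 arrays (y axis), for each array, blastema (red) left of uninjured digit (blue), numbered by replicate, with lines at group means. Blastema lies below uninjured digit in complexes I, III, IV and V, overlaps it in complex II, and does not part from it over all genes.

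Among the 12 genes matched by the rule that encode no core subunit, 1 fell and 1 rose. These were 8.33% each, against 4.66% of all tested genes lower and 4.98% higher. Ndufa4l2, a relative of Ndufa4 known to be induced by low oxygen, was at 9.88, 9.999 and 9.85 in blastema, against 9.60, 9.60, 9.39 and 9.29 in uninjured digit. Each blastema array was above each uninjured one, and the log2 fold change was 0.44 ± 0.10 (adjusted p = 0.0338). It passed only without uninjured array 1 (0.0372), with 0.0518 to 0.122 in the other 6 omissions. Cox7a2l, which helps to join complexes III and IV into supercomplexes, was at 6.49, 6.54 and 6.51 in blastema, against 6.90, 6.99, 6.94 and 6.82 in uninjured digit. It fell by 0.40 ± 0.06 (adjusted p = 0.0107) and kept its call without any 1 array. None of the 8 complex I assembly factors Ndufaf1 to Ndufaf8 passed in limma. The nearest were Ndufaf8 at -0.28 (adjusted p = 0.0588) and Ndufaf7 at -0.38 (adjusted p = 0.065). The pseudogenes Atp5c1-ps and Uqcrh-ps1 were under the background level in both groups.

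Some complex IV subunits have a second gene used in few tissues, such as muscle, lung or testis. For 7 pairs, Ndufa4l2 and Ndufa4 among them, that gene's level minus that of its widely expressed partner was compared between the groups by an exact two-sided permutation test over the 35 splits of the arrays. In 3 pairs the restricted gene (Cox7b2, Cox7a1 or Cox8b) was under the background level in both groups, so no difference is given. The difference shifted upward by 0.87 for Ndufa4l2 against Ndufa4 and 0.78 for Cox6b2 against Cox6b1. Each had an exact p of 0.0286, the smallest the design allows, and 0.05 after adjustment over the 7 pairs, which is not under the threshold. The adjustment includes the 3 pairs set aside. The pairs with Cox7a1 and Cox7b2 had the same exact p, so the adjusted value rests partly on genes under the background level. In Ndufa4l2 against Ndufa4 the difference was 0.51, 0.40 and 0.27 in blastema and -0.26, -0.34, -0.70 and -0.58 in uninjured digit. In that pair Ndufa4 fell and Ndufa4l2 rose. In the other, Cox6b1 fell and Cox6b2 did not pass, at -0.07 (-0.37 to 0.23). Cox6b2 lay near the background level of 5.52, with means of 5.64 in blastema and 5.71 in uninjured digit. The last 2 pairs shifted by 0.26 (Cox4i2 against Cox4i1, exact p = 0.229) and 0.13 (Cox6a2 against Cox6a1, exact p = 0.286).

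Other mitochondrial gene lists were measured beside the subunits. Among 37 assembly factors matched by other names, 7 fell (18.9%) and 1 rose (2.70%), with a median of -0.17. Over all tested genes 4.66% fell and 4.98% rose. Acad9, which helps to assemble complex I, fell by 0.88 ± 0.19 (adjusted p = 0.0288). It passed only without uninjured array 1, with 0.0563 to 0.118 in the other 6 omissions. Pet100, which acts on complex IV, fell by 0.59 ± 0.10 (adjusted p = 0.0114, 0.0575 without blastema array 3). The other genes that fell were Uqcc2, Atpaf2, Cox17, Coa3 and Sdhaf1, and Cox18 rose by 0.46 (adjusted p = 0.0207).

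Of 18 fatty acid oxidation genes 4 fell and 1 rose, against 4.66% and 4.98% of all tested genes, with a median of -0.26. The thiolase Acaa2 fell by 0.94 ± 0.11 (adjusted p = 0.00393) and the hydratase Echs1 by 0.78 ± 0.09 (adjusted p = 0.00359). Etfa and Hadh also fell, and the dehydrogenase Acadl rose by 0.43 (adjusted p = 0.0304). Of 17 citric acid cycle genes 2 fell and 1 rose, with a median of -0.01. Dlst, part of the 2-oxoglutarate dehydrogenase complex, rose by 0.49 ± 0.07 (adjusted p = 0.00845). Idh3b and Fh1 fell by 0.28 each (adjusted p = 0.0431 and 0.0471). Idh3b passed only without uninjured array 1, with 0.0826 or more in the other 6 omissions. The RNA level of citrate synthase (Cs) was at -0.09 (-0.31 to 0.14, adjusted p = 0.624), and mitochondrial content itself was not measured.

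Mitochondrial import and outer membrane genes gave 2 of 19 lower (10.5%) and 0 higher, against 4.66% and 4.98% of all tested genes. At an unadjusted p under 0.05 the limma counts were 5 and 1, and the median was -0.07. Tomm22, a receptor of the import channel, fell by 0.63 ± 0.08 (adjusted p = 0.00512), and Tomm20 by 0.36 ± 0.08 (adjusted p = 0.0343). Tomm20 kept its call only without uninjured array 4 or blastema array 1 (0.0697 to 0.115 in the other 5 omissions). Of 8 carriers and uncouplers 0 passed in limma, with 3 lower and 1 higher at an unadjusted p under 0.05 (12.7% and 12.2% of all tested genes). The ADP/ATP carrier Slc25a5 was at -0.40 (-0.71 to -0.10, adjusted p = 0.107), and it passed without uninjured array 1 (0.0245). Cytochrome c (Cycs) was at -0.09 (-0.38 to 0.19).

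None of the 14 regulators of mitochondrial gene expression passed in limma, with 1 lower and 0 higher at an unadjusted p under 0.05. Of all tested genes 9.64% passed in either direction, and 12.7% were lower and 12.2% higher at the unadjusted p. A count of 0 among 14 genes is near that share. The median of the list was -0.04, and 3 of its genes were at or under the background level. Ppargc1a, the coactivator PGC-1alpha, was at 0.07 (-0.18 to 0.31), with group means of 4.52 in blastema and 4.45 in uninjured digit that were both under the background level. Its partner Esrra was at -0.06 (-0.21 to 0.08), Nrf1 at -0.11 (-0.25 to 0.04) and Tfam, which packages and transcribes mitochondrial DNA, at -0.04 (-0.19 to 0.11). Gabpa was at -0.05 (-0.20 to 0.11). Tfb1m had the smallest p of the list, with -0.30 (-0.59 to -0.01, adjusted p = 0.192).

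**Figure D5:**
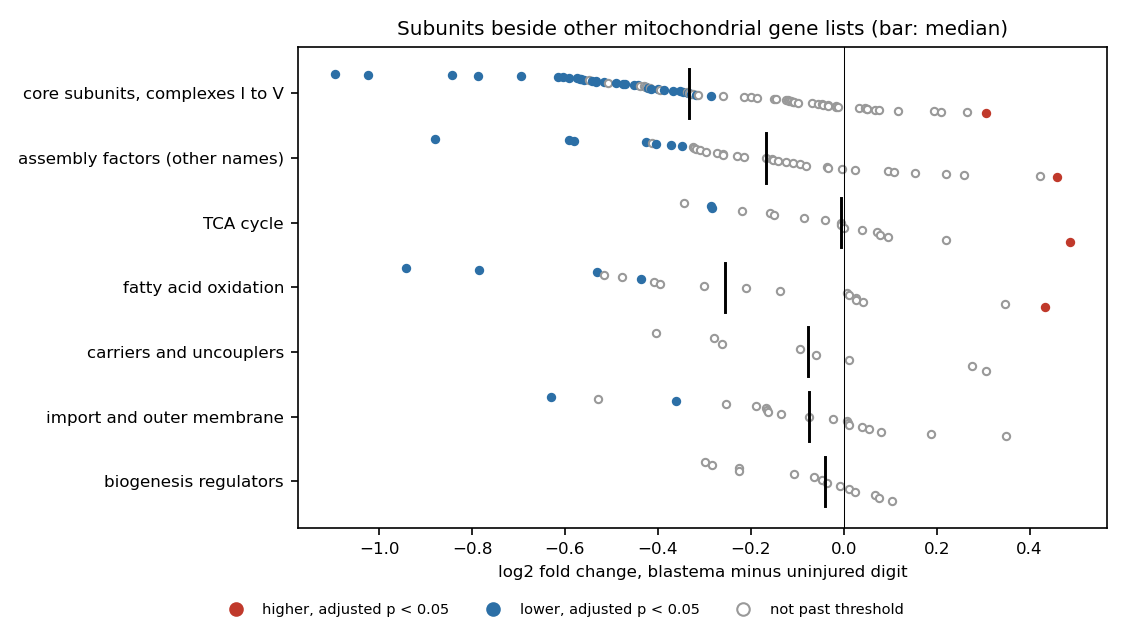
Log2 fold change (x axis, blastema minus uninjured digit) of each gene of 7 mitochondrial lists, 1 row for each list, with a black bar at the median. The subunits (median -0.33), fatty acid oxidation genes (-0.26) and assembly factors (-0.17) lie left of zero, and the other 4 medians lie between -0.08 and -0.01.

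Cell type markers moved between the same groups, in which 4.66% of all tested genes fell and 4.98% rose. Of 8 cornified epidermis markers 6 fell, and their summed linear level was 18874 to 20146 in blastema, against 24905 to 30075 in uninjured digit. Of 6 sweat gland markers 3 fell (394 to 432 in blastema, 599 to 703 in uninjured digit). Of 6 osteoblast markers 6 rose (9952 to 14323 in blastema, 543 to 1154 in uninjured digit), as did 8 of 9 osteoclast markers (2150 to 4787 and 535 to 602). Of 7 fibroblast markers 5 rose (14121 to 19002 in blastema, 3285 to 6685 in uninjured digit), and of 7 macrophage markers 4 rose (1288 to 1713 and 794 to 997). The part of these shifts in the subunit values was not tested.

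Markers of skeletal muscle, brown and white fat and erythroid cells were checked in the same way. None of 14 skeletal muscle markers passed in limma (0 at an unadjusted p under 0.05), 9 were at or under the background level, and their summed level was 556 to 596 in blastema, against 555 to 589 in uninjured digit. None of 8 brown adipocyte markers passed (2 lower and 1 higher at an unadjusted p under 0.05), and 4 were at or under the background level. Their summed level was 262 to 272 in blastema and 261 to 427 in uninjured digit. Of 8 white adipocyte markers 0 fell and 1 rose, and 4 were at or under the background level. Their summed level was 714 to 802 in blastema, against 595 to 656 in uninjured digit. The part of this shift in the subunit values was not tested. The 3 measured erythroid markers were at or under the background level. Over all tested genes 4.66% fell and 4.98% rose, with 12.7% lower and 12.2% higher at the unadjusted p.

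The direction of small changes rests on the scale. Over 8 reference genes the log2 fold change averaged 0.42, with B2m (1.34), Gusb (0.89) and Gapdh (0.31) called higher and 0 called lower. Scaling each array to them moved the median of all genes to -0.43, and gave 14505 genes lower and 506 higher in place of 1034 and 1105. The scaling takes 1 constant per array off every gene. Values relative to that shift are therefore, by arithmetic, the unscaled ones less the unscaled median of all genes, and they check nothing. They were -0.35, -0.03, -0.43, -0.21 and -0.19 for the medians of complexes I to V, 0.31 for Sdhc and 0.44 for Ndufa4l2. On the reference gene scale itself Sdhc was at -0.12 and Ndufa4l2 at 0.02, and neither passed.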

How the data were processed

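RNA of 3 blastemas and 4 uninjured digits was measured on 1-colour arrays. The deposited values are log2 levels from RMA in the R package oligo, per the submitters' processing notes. RMA removes background, equalises the distributions of arrays and combines probes into probe sets. For the array design and build, no statement is given in the sources used here. The table held 41345 probe sets, with 1 symbol for 23521, several for 1814 and none for 16010 in the platform annotation, and 0 columns of other samples. Of 22180 genes, 1082 had several probe sets, and the brightest over the 7 arrays was used. Files give no date, slide or other batch.

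Blastema was compared with uninjured digit with limma 3.58.1 in R 4.3.3 (lmFit and eBayes, no covariate, no filter), with Benjamini-Hochberg adjustment over all genes. SE and 95% intervals come from that fit, as do the adjusted p-values printed for genes. The fit was tested on simulated data. Python 3.11.15 with matplotlib 3.10.9 made the figures. Promoter windows are from RefSeq.

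The members, lists, structural parts and alternatives were chosen with earlier results of these data known. Some subunits, the mitochondrially encoded ones among them, were not analysed here. Genes named by rule are up to 6 called members of each complex with the largest changes, the 2 largest differences not called, the isoform pairs, called genes with no core subunit, Ppargc1a, Esrra, Nrf1, Tfam, Cycs and Cs, and 2 called genes of each other list or the one with the smallest p. Other genes were named after their values were seen. The alternatives were a block on replicate number, a level filter at the 30th percentile, the mean of probe sets, trend and robust variances, array weights, 2 scalings and the omission of arrays.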

Additional observations from a re-analysis of the deposited data

Results flagged for a closer look

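Of 66 values examined, 61 were genes and the rest complex medians. In 7 genes 1 uninjured array was flagged as apart from the other 3 by Dixon's test in 4 samples. Chance flags about 1 group in 20. The test weighs the gap against the range of the 4 values. A small gap is therefore flagged where the other 3 nearly tie, as in Tfam and Cox6a2. Blastema, with 3 arrays, cannot be examined in this way. Cox5b was at 8.96 in uninjured array 4 and at 9.26 to 9.30 in the other 3. Cox6a2 was at 5.49 in the same array, against 5.56 to 5.57. Uninjured array 1 was high for 2 isoforms, Cox4i2 (7.48, the others 6.80 to 6.85) and Cox6b2 (5.98, the others 5.60 to 5.64), and low for Acaa2 (8.23, the others 8.58 to 8.65). Tfam was at 5.63 in uninjured array 3 (the others 5.70 to 5.71), and Echs1 at 8.35 in uninjured array 2 (the others 8.10 to 8.14).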

How the results depend on the processing

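With 1 array left out, 13 to 33 oxidative phosphorylation genes were lower and 0 to 1 higher, beside 365 to 1009 lower and 457 to 1286 higher among all genes. The complex medians ran from -0.14 to 0.060 (II), from -0.28 to -0.073 (IV) and from -0.28 to -0.18 (V). Near zero the sign turned for Cox6b2 (-0.16 to 0.025), Cycs (-0.17 to 0.0090), Ppargc1a (-0.013 to 0.19) and Tfam (-0.062 to 0.015). Without both arrays numbered 1, 24 genes were lower and 0 higher, the medians of complexes II and IV were 0.087 and -0.084, and Cox6b2 (0.025), Tfam (0.020) and Cox8b (-0.043) changed sign.

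The labels do not say whether replicate numbers pair the samples, and they were not treated as pairs. The deviations of same-numbered arrays correlated at 0.29, 0.15 and -0.07, and 3 such values cannot decide whether the samples were paired. With the number as a replicate block, which leaves uninjured array 4 without a partner, 10 oxidative phosphorylation genes were lower and 0 higher, and of all genes 304 were lower and 295 higher.

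Scaling to the reference genes gave 78 lower and 0 higher oxidative phosphorylation genes, and 14505 lower and 506 higher in all. The medians of complexes I to V were then -0.78, -0.46, -0.86, -0.64 and -0.62. Sdhc (-0.12), Cox6a1 (-0.35), Cox6a2 (-0.21), Cox7b2 (-0.38), Cox8b (-0.30) and Ppargc1a (-0.36) turned. Scaling to the array median gave 41 lower and 1 higher, beside 1297 lower and 1007 higher among all genes. The median of complex IV was -0.43 with the level filter, which removes dim genes, and that of complex V -0.14 with the mean of probe sets. Lower counts were 40 with the filter, 32 with the mean of probe sets, 36 with trend and robust variances and 35 with array weights. Beside them the lower counts among all genes were 1238, 1033, 1096 and 1446, in that order. Array weights thus raised the count of all genes from 1034 to 1446, and that of the oxidative phosphorylation genes from 34 to 35. The median of complex II under array weights was 0.0030. Other causes were not tested. The exact isoform tests were not run under the block, trend and robust variances, array weights or scalings. Signal over background limits Ndufb11, Ndufs5, Atp5j2 and 4 restricted complex IV isoforms, and Cox6a2 and Cox6b2 lay near the background level.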
